A study of Homo sapiens with 12 samples.

Results

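The U4/U6.U5 tri-snRNP is the pre-assembled particle that carries 3 of the spliceosome's small nuclear RNAs onto a pre-mRNA. The genes described here encode 10 of its proteins: PRPF8, SNRNP200, EFTUD2 and PRPF6 of the U5 snRNP, PRPF3, PRPF4 and PRPF31 of the U4/U6 di-snRNP, and SNRNP27, SART1 and USP39, which are found in the particle once the U5 and U4/U6 snRNPs have joined. They were chosen by symbol, as proteins of the particle in which UBL5 acts. All 10 were listed in both cell lines, among 17640 genes in HepG2, 18434 in Huh7 and 20293 in either.

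RNA was sequenced from HepG2 and Huh7, human hepatoma lines that the sample labels class as hepatocellular carcinoma of WT genotype, after transfection by Lipofectamine RNAiMAX. In each line, 3 libraries came from cells given a non-target control siRNA (Ctrl-siRNA) and 3 from cells given UBL5 siRNA, 12 libraries in all. The medium was replaced after a night and the cells were kept for 36 h more, and the labels give 52 h for all groups, where the study's text gives a shorter time. A single siRNA to UBL5 was used and the labels do not tie the libraries to separate transfections, so p-values here reflect only how far these libraries vary, which may be technical.

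Within the tri-snRNP, U6 RNA is held inactive by pairing with U4 RNA, and U5 RNA contacts the exon ends. On the pre-mRNA, U6 replaces U1 RNA at the 5′ splice site and the helicase encoded by SNRNP200 then unwinds U4 from U6. UBL5 is a ubiquitin-like protein that is not known to be attached to substrates and that binds SART1 without a covalent bond. Its yeast counterpart is known for the use of 5′ splice sites that deviate from the usual sequence.

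Because U6 and its partners read the 5′ splice site, the sites in the pre-mRNAs of the SNRNP27 and SART1 genes are shown, SNRNP27 for having the fewest introns of the 10 and SART1 for the unusual intron in it. The letters are the last 3 bases of the exon in lower case, the first 2 of the intron in capitals and the next 4 in lower case, read 5′ to 3′ on the gene's strand of GRCh38 from the canonical transcript of GENCODE 44. All 5 introns of SNRNP27 (plus strand of chromosome 2) started with GT:
SNRNP27 intron 1, chr2:69894019-69895093: gggGTgagt
SNRNP27 intron 2, chr2:69895215-69896435: ccgGTaagg
SNRNP27 intron 3, chr2:69896549-69897376: ctgGTaatg
SNRNP27 intron 4, chr2:69897457-69903180: aaaGTaagt
SNRNP27 intron 5, chr2:69903246-69904253: cagGTatgc
SART1 (plus strand of chromosome 11) had the single intron of the set that started with GC, set here beside its 2 neighbours:
SART1 intron 7, chr11:65965987-65966075: aagGTaatg
SART1 intron 8, chr11:65966219-65966349: cagGCacgg
SART1 intron 9, chr11:65966557-65967258: atgGTgagc
Of the 210 introns of the 10 genes, 209 were of the GT-AG kind and 1 was GC-AG, and none was AT-AC. Over 190146 introns of the canonical transcripts of protein-coding genes, mitochondrial DNA left out, these kinds made up 99.1%, 0.768% and 0.0999%. The start of the introns read by the minor spliceosome was taken as GTATCCTT or ATATCCTT at the first bases of the intron. It was at 0 of the 210 introns and at 0.299% of the 190146. No splice junction was measured in these counts per gene.

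UBL5 itself, the targeted gene, was low in every library given UBL5 siRNA. In HepG2, its level was 60.4, 55.5 and 58.7 CPM with Ctrl-siRNA and 6.88, 4.31 and 2.80 with UBL5 siRNA, where CPM is a gene's share of the counts of a library, per M counts, after TMM scaling. In Huh7, these levels were 68.1, 70.8 and 67.1 CPM against 6.45, 6.67 and 5.80. The deposited counts summed to 19.5 to 29.7 M per library, in which the 10 genes took 0.230% to 0.248% with Ctrl-siRNA. With UBL5 siRNA they took 0.251% to 0.263% in HepG2 and 0.272% to 0.297% in Huh7. Replicate 3 of Ctrl-siRNA in HepG2 stood apart, with 1773 listed genes at 0 where the other HepG2 libraries had 159 to 233. The column names of both HepG2 libraries numbered 3 lack a tag that those of all other libraries carry. What this difference in naming means is not given. A fit without both of these libraries, chosen after seeing the data, called 3427 genes higher and 3743 lower in HepG2. The main fit called 2607 higher and 3173 lower. Counts of mitochondrial genes made up 1.91% to 2.35% with Ctrl-siRNA and 2.75% to 3.61% with UBL5 siRNA in HepG2, against 2.46% to 3.30% and 2.66% to 3.72% in Huh7, where the ranges overlap, and their part in the results was not tested. All 10 hepatocyte markers examined were listed in both lines and summed to 4.99% to 5.77% of counts in HepG2 and 2.91% to 3.04% in Huh7. Marker sums in CPM are given here without TMM scaling. Of 6 leukocyte markers, PTPRC, CD3E, CD68 and ITGAM were listed in neither line. The sum of the others (CD14 and CD79A in HepG2, CD14 alone in Huh7) was higher with UBL5 siRNA, at 6.01 to 9.24 CPM against 0.336 to 1.39 in HepG2 and 4.21 to 5.21 against 1.55 to 1.80 in Huh7. The 6 fibroblast markers were all listed and summed to 8.05 to 14.1 CPM with Ctrl-siRNA and 9.96 to 26.0 with UBL5 siRNA in HepG2, which overlap, and to 32.4 to 36.6 against 17.5 to 30.1 in Huh7, which do not. Of 5 endothelial markers, 2 were listed in HepG2 and 1 in Huh7, with overlapping sums of at most 6.51 CPM. The part of these markers in the results was not tested.

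The comparison of the siRNAs within each line asks which of the tri-snRNP genes moved with the loss of UBL5. With the threshold at an adjusted p under 0.05 (edgeR's quasi-likelihood test, Benjamini-Hochberg over all genes tested), PRPF3, PRPF4, SNRNP27 and USP39 rose in HepG2 and none of the 10 fell. These were 4 of 10, where 16.5% of the 15755 genes tested were called higher, 20.1% lower and 36.7% in either direction. In Huh7, 9 of 10 rose, all but SNRNP200, where 34.9% of the 16965 genes tested were called higher, 36.4% lower and 71.3% in either direction. The libraries of UBL5 siRNA all lay above those of Ctrl-siRNA for the same 4 genes in HepG2 (26.1% of all genes tested, and 26.9% all below) and the same 9 in Huh7 (35.9%). With library totals as the only scaling, SNRNP200 was called lower in Huh7 (log2 fold change -0.13, edgeR adjusted p = 0.0385) and PRPF6 was not called (0.06, adjusted p = 0.194). The median log2 fold change of the 10 genes was 0.13 in HepG2 and 0.44 in Huh7, beside medians of 0.01 and -0.01 over all genes tested. Replicates varied more in HepG2, at a biological coefficient of variation of 0.189, and less in Huh7, at 0.0663. The libraries are of bulk RNA, in which fewer cells with a transcript and less of it per cell cannot be told apart.

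**Figure D1:**
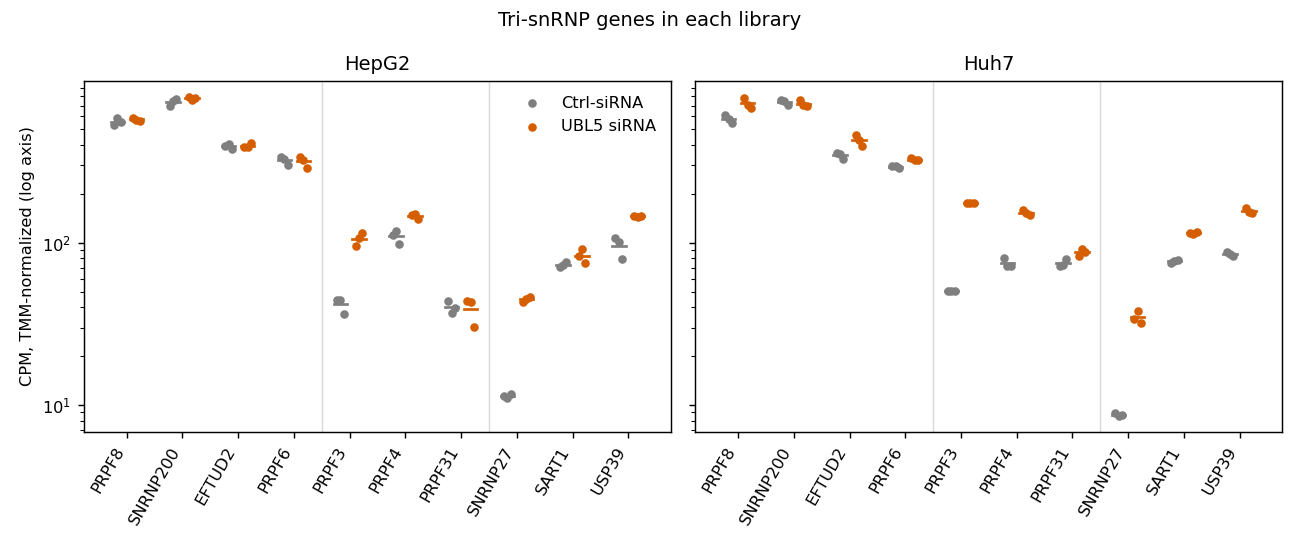
CPM (TMM-normalized, log axis) of the 10 tri-snRNP genes in each library of HepG2 and Huh7, with grey points for Ctrl-siRNA, orange points for UBL5 siRNA and short bars for the group means (n = 3 each); vertical lines part the U5, U4/U6 and joining proteins. The orange points of PRPF3, PRPF4, SNRNP27 and USP39 lie above the grey ones in both lines, and those of SNRNP200 overlap them.

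Of the 4 U5 genes, 0 were called in HepG2 (by edgeR or DESeq2 at an adjusted p under 0.05, and 0 by edgeR at an unadjusted p under 0.05). Of all genes tested there, 36.7% were called by edgeR at the adjusted threshold. In Huh7, 3 of the 4 rose, by 1.24-fold at most, where 34.9% of all genes tested were called higher. PRPF8 encodes the scaffold of the spliceosome's catalytic centre (chr17:1650629-1684867, minus strand, 43 exons in the canonical transcript). In HepG2, its level was 532, 587 and 552 CPM with Ctrl-siRNA and 590.0, 570.3 and 565 with UBL5 siRNA, and in Huh7 it was 613, 582 and 549.9 against 784, 706 and 679. The groups overlapped in HepG2 and were apart in Huh7. The fold change was 1.03 in HepG2 (95% interval 0.923 to 1.15, edgeR adjusted p = 0.654) and 1.24 in Huh7 (1.13 to 1.36, adjusted p = 0.000614).

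EFTUD2, the GTPase of the U5 snRNP (chr17:44849948-44899445, minus strand), had the same pattern. In HepG2, its level was 396, 406 and 376 CPM with Ctrl-siRNA against 389.6, 388 and 409. In Huh7 it was 357, 350.5 and 328 CPM against 463, 428 and 394. Only the Huh7 groups were apart, with a fold change of 1.24 (95% interval 1.13 to 1.36, edgeR adjusted p = 0.000642), and in HepG2 the fold change was 1.01 (0.90 to 1.13, adjusted p = 0.932).

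SNRNP200, the helicase that separates U4 from U6 (chr2:96274338-96321271, minus strand), had the highest CPM of the 10 genes with Ctrl-siRNA in both lines. In HepG2, its level was 699, 749 and 763 CPM with Ctrl-siRNA and 790.5, 761 and 781 with UBL5 siRNA, and in Huh7 it was 757, 750.4 and 708 against 753, 702 and 693. The groups overlapped in both lines, at a fold change of 1.05 in HepG2 (95% interval 0.947 to 1.18, edgeR adjusted p = 0.422) and 0.97 in Huh7 (0.90 to 1.04, adjusted p = 0.431).

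PRPF6 (chr20:63981132-64033100, plus strand) encodes the protein that bridges the U5 and U4/U6 parts of the particle. Its level was 336, 326 and 303 CPM with Ctrl-siRNA in HepG2, against 338, 325 and 288 with UBL5 siRNA, and 296, 296 and 289 against 330.3, 323 and 321 in Huh7. The HepG2 groups overlapped (fold change 0.985, 95% interval 0.860 to 1.13, edgeR adjusted p = 0.872). The Huh7 groups were apart by a small step (1.11, interval 1.04 to 1.18, adjusted p = 0.00734), which was not called with the spread estimated from the 12 libraries together (log2 fold change 0.12, adjusted p = 0.117).

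The U4/U6 genes moved unequally. PRPF3 (chr1:150321479-150353233, plus strand, 16 exons) encodes a protein that binds U4/U6 RNA together with PRPF4. Its level in HepG2 was 44.3, 44.3 and 36.4 CPM with Ctrl-siRNA and 94.8, 107 and 114 with UBL5 siRNA, and in Huh7 it was 50.5, 50.6 and 50.1 against 175, 176 and 174. The groups were far apart in both lines, and the 3 libraries of a group lay closer together in Huh7 than in HepG2. The fold change was 2.53 in HepG2 (95% interval 2.11 to 3.04, edgeR adjusted p = 0.000145) and 3.47 in Huh7 (3.25 to 3.71, adjusted p = 2.86e-10).

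PRPF4 (chr9:113275642-113294009, plus strand), the partner of PRPF3, rose less. It had 112, 119 and 97.6 CPM with Ctrl-siRNA in HepG2, against 149, 151 and 141 with UBL5 siRNA, and 80.6, 71.5 and 71.4 against 159, 152 and 148 in Huh7. No library of one siRNA reached into the range of the other. PRPF4 thus rose 1.34-fold in HepG2 (95% interval 1.16 to 1.56, edgeR adjusted p = 0.00803) and 2.05 in Huh7 (1.88 to 2.24, adjusted p = 2.92e-08).

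PRPF31 (chr19:54115410-54131719, plus strand) encodes the protein that binds the U4 RNA stem-loop beside SNU13. It had 44.0, 37.0 and 39.7 CPM with Ctrl-siRNA in HepG2, against 43.8, 43.3 and 30.3 with UBL5 siRNA, and 72.2, 73.4 and 79.8 against 82.9, 92.0 and 87.4 in Huh7. In HepG2 the groups overlapped, with replicate 3 of UBL5 siRNA the lowest of the 6 (fold change 0.973, 95% interval 0.765 to 1.24, edgeR adjusted p = 0.868). In Huh7 they were apart (1.16, interval 1.07 to 1.27, adjusted p = 0.00514), a call that was lost with the spread of the 12 libraries (log2 fold change 0.20, adjusted p = 0.162). Of the PRPF31 exon bases, 31.3% are shared with genes on the opposite strand, TFPT (9.28%) and PRPF31-AS1 (22.0%), and the strand setting of the counting is not given, so its counts are uncertain. TFPT had 224 counts per library with Ctrl-siRNA in HepG2 and was not called in either line (in HepG2 a log2 fold change of -0.28 with an adjusted p = 0.248, in Huh7 0.02 with 0.859).

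Among the proteins of the joined particle, SNRNP27 (chr2:69893956-69905575, plus strand), an arginine- and serine-rich protein, had the largest fold change of the 10 genes in both lines, with an interval that overlapped that of PRPF3 in Huh7. Its level was 11.4, 11.1 and 11.7 CPM with Ctrl-siRNA in HepG2, against 43.4, 45.1 and 46.3 with UBL5 siRNA. In Huh7 it was 8.88, 8.56 and 8.67 CPM against 34.04, 37.8 and 32.1. The lowest library with UBL5 siRNA was thus well over the highest with Ctrl-siRNA in each line. The fold change was 3.94 in HepG2 (95% interval 3.34 to 4.65, edgeR adjusted p = 3.95e-05) and 3.97 in Huh7 (3.49 to 4.52, adjusted p = 4.13e-09). MXD1, a transcriptional repressor gene on the same strand, shares 12.5% of the SNRNP27 exon bases, and it was not called (in HepG2 a log2 fold change of 0.21 with an adjusted p = 0.371, in Huh7 0.14 with 0.1101).

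USP39 (chr2:85602856-85649283, plus strand) is related to ubiquitin proteases but lacks their activity. It had 107, 100.4 and 79.6 CPM with Ctrl-siRNA in HepG2, against 146, 144 and 146 with UBL5 siRNA, and 87.1, 85.3 and 82.3 against 163, 154 and 152 in Huh7. The UBL5 siRNA libraries were higher in both lines, and the widest spread was that of Ctrl-siRNA in HepG2, where replicate 3 was low. USP39 thus rose 1.52-fold in HepG2 (95% interval 1.27 to 1.81, edgeR adjusted p = 0.00379) and 1.84 in Huh7 (1.71 to 1.98, adjusted p = 2.52e-08). TMEM150A and C2orf68, on the opposite strand, share 1.998% and 5.14% of its exon bases and fell in both lines (log2 fold changes -1.08 and -1.04 in HepG2, -0.83 and -1.07 in Huh7).

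SART1 (chr11:65961728-65980137, plus strand, 20 exons) encodes the protein that UBL5 binds. In HepG2, its level was 70.8, 73.2 and 75.9 CPM with Ctrl-siRNA and 82.7, 91.5 and 74.9 with UBL5 siRNA, and in Huh7 it was 75.1, 77.6 and 78.6 against 115, 113 and 117. Replicate 3 of UBL5 siRNA lay within the Ctrl-siRNA range in HepG2, and the Huh7 groups were apart. The fold change was 1.13 in HepG2 (95% interval 0.970 to 1.32, edgeR adjusted p = 0.190) and 1.49 in Huh7 (1.39 to 1.60, adjusted p = 4.39e-07). Without both HepG2 libraries numbered 3, SART1 was called in HepG2 (log2 fold change 0.29, adjusted p = 0.0342), as it was with the spread of the 12 libraries (adjusted p = 0.0446).

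**Figure D2:**
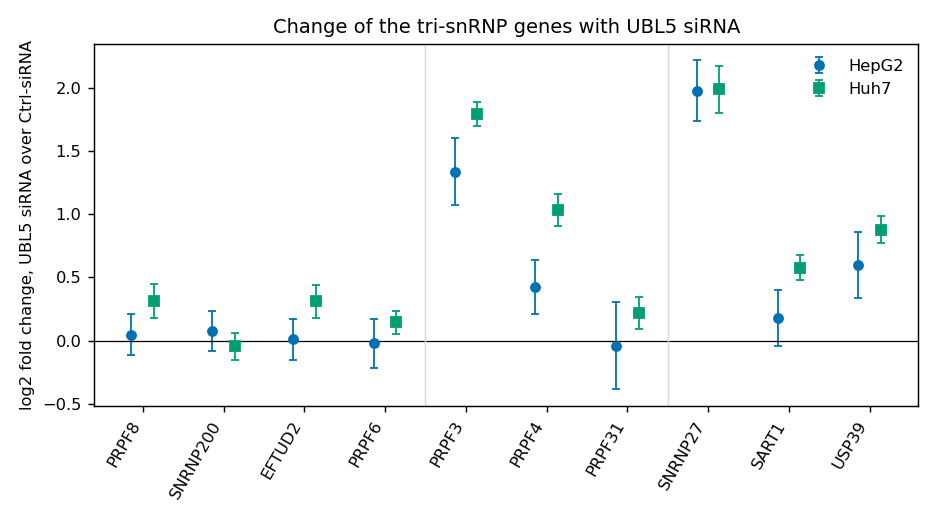
Log2 fold change of the 10 tri-snRNP genes, UBL5 siRNA over Ctrl-siRNA, in HepG2 (blue circles) and Huh7 (green squares), with bars for the 95% interval from edgeR (3 libraries against 3). SNRNP27 is at 1.98 and 1.99, PRPF3 at 1.34 and 1.79, and the 4 U5 genes at the left lie between -0.04 and 0.31.

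Whether a gene moved by a different amount in the 2 lines was tested as an interaction over the 12 libraries. PRPF4, PRPF3 and SART1 rose more in Huh7 than in HepG2, 3 of the 10 genes. Of 15668 genes, 21.5% differed between the lines, 11.7% in this direction and 9.88% in the other. The effect in Huh7 exceeded that in HepG2 by a log2 of 0.58 for PRPF4 (SE 0.109, edgeR adjusted p = 0.00223), 0.43 for PRPF3 (SE 0.120, adjusted p = 0.0214) and 0.37 for SART1 (SE 0.1004, adjusted p = 0.0185). The difference of PRPF3 was lost without any 1 of 4 libraries: replicate 2 of Ctrl-siRNA in HepG2 (adjusted p = 0.0513), replicate 2 or 3 of Ctrl-siRNA in Huh7 (0.0503 and 0.0531) or replicate 2 of UBL5 siRNA in Huh7 (0.0552). SNRNP27 differed by -0.02 (95% interval -0.29 to 0.26, adjusted p = 0.950), and the interval covers differences of either sign. For EFTUD2 (0.27, adjusted p = 0.0598), PRPF8 (0.24, adjusted p = 0.0982), USP39 (0.25, adjusted p = 0.176), PRPF31 (0.23, adjusted p = 0.354), PRPF6 (0.14, adjusted p = 0.304) and SNRNP200 (-0.15, adjusted p = 0.245), the difference did not pass, so the calls in Huh7 alone do not show a difference between the lines. With the replicate number as a block, EFTUD2 (adjusted p = 0.0189) and PRPF8 (0.0303) passed too. Without replicate 3 of Ctrl-siRNA in HepG2, EFTUD2 (0.0446) and USP39 (0.00760) passed.

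The lines already differed with Ctrl-siRNA alone, as the next comparison shows. Over the 10 genes, PRPF31 was higher in Huh7 and PRPF4, SNRNP27, EFTUD2, USP39 and PRPF6 were lower, 6 called of 10 (1 higher, 5 lower) where 63.7% of 15668 genes were (32.0% higher, 31.7% lower). These levels are in CPM scaled over the 12 libraries. PRPF31 had 42.0 ± 3.52 in HepG2 and 73.5 ± 3.42 in Huh7 (SD, n = 3), which is 1.75-fold higher (edgeR adjusted p = 3.06e-05). PRPF4 had 114 ± 10.51 and 72.9 ± 5.55, a log2 difference of -0.64 (adjusted p = 5.45e-06). SNRNP27 had 11.9 ± 0.404 and 8.52 ± 0.192, a log2 difference of -0.48 (adjusted p = 0.000483). After UBL5 siRNA, PRPF4 reached 154 ± 4.01 in HepG2 and 147 ± 4.91 in Huh7, ranges that overlapped (149 to 157 against 143 to 153). The differences of EFTUD2 (-0.28, adjusted p = 0.0025), USP39 (-0.26, adjusted p = 0.0167) and PRPF6 (-0.22, adjusted p = 0.00645) were smaller, and those of USP39 and PRPF6 were lost with library totals as the only scaling, which moved the median of all genes from 0.02 to 0.14. That of USP39 was also lost without replicate 1 or 2 of Ctrl-siRNA in HepG2 (adjusted p = 0.0651 and 0.0596).

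Levels can be set beside each other between genes only per length, as CPM per kb of annotated exon. With Ctrl-siRNA in HepG2, PRPF6 stood highest at 110 ± 4.84 (SD, n = 3), followed by SNRNP200 (68.8), PRPF8 (50.6) and EFTUD2 (40.4), and then by PRPF4 (25.8) and USP39 (25.2), whose libraries overlapped. SART1 (16.7) and PRPF31 (15.7) overlapped as well, and PRPF3 (8.03) and SNRNP27 (6.27) were lowest. In Huh7, the order was PRPF6 (94.3), SNRNP200 (64.6), PRPF8 (49.5), EFTUD2 (33.3), PRPF31 (27.5), USP39 (21.0), PRPF4 (16.5), SART1 (16.4), PRPF3 (9.12) and SNRNP27 (4.49), with overlap of PRPF4 and SART1 only. With the length of the canonical transcript in its place, neighbours changed places (EFTUD2 above PRPF8 and USP39 above PRPF4 and PRPF31 above SART1 in HepG2, SNRNP200 above PRPF6 in Huh7), and PRPF3 and SNRNP27 were lowest in both lines by either length. With UBL5 siRNA in HepG2, PRPF4 (34.8 CPM per kb), PRPF3 (20.4) and PRPF31 (15.3) stood apart. With UBL5 siRNA in Huh7, PRPF3 stood at 31.2 ± 0.189 beside PRPF4 at 33.4 ± 1.11 and PRPF31 at 31.5 ± 1.71 CPM per kb, where with Ctrl-siRNA these 3 were at 9.12, 16.5 and 27.5. By the canonical length, PRPF3, PRPF4 and PRPF31 stood at 69.8, 50.9 and 45.9 in Huh7. Across the 10 genes, the Ctrl-siRNA level per kb and the log2 fold change had a Spearman's rho of -0.576 in HepG2 and -0.903 in Huh7. This is a description over 10 genes that share their libraries, and the Ctrl-siRNA level enters both quantities.

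The ratio of counts of 2 genes within a library does not depend on scaling, and it was followed for 4 pairs of partners. Its change restates the difference between the fold changes of the 2 genes given above, so it is not a separate result. PRPF3 over PRPF4 had a mean of 0.381 with Ctrl-siRNA in HepG2, against 0.716 with UBL5 siRNA (ranges 0.373 to 0.397 and 0.637 to 0.810), and 0.678 and 1.14 in Huh7 (0.627 to 0.708 and 1.10 to 1.18). PRPF3 over PRPF31, a gene whose counts are uncertain, went from 1.03 to 2.72 in HepG2 and from 0.672 to 2.003 in Huh7. SNRNP27 over SART1 went from 0.155 to 0.543 in HepG2 and from 0.113 to 0.301 in Huh7. In these 3 pairs, the libraries of the siRNAs did not overlap in either line (p = 0.1 by a two-sided exact permutation test, which cannot go lower with 3 libraries against 3). SNRNP200 over PRPF8 was 1.32 and 1.35 in HepG2, where the groups overlapped (exact permutation test, p = 0.4), and 1.27 and 0.992 in Huh7, where they did not (exact permutation test, p = 0.1).

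**Figure D3:**
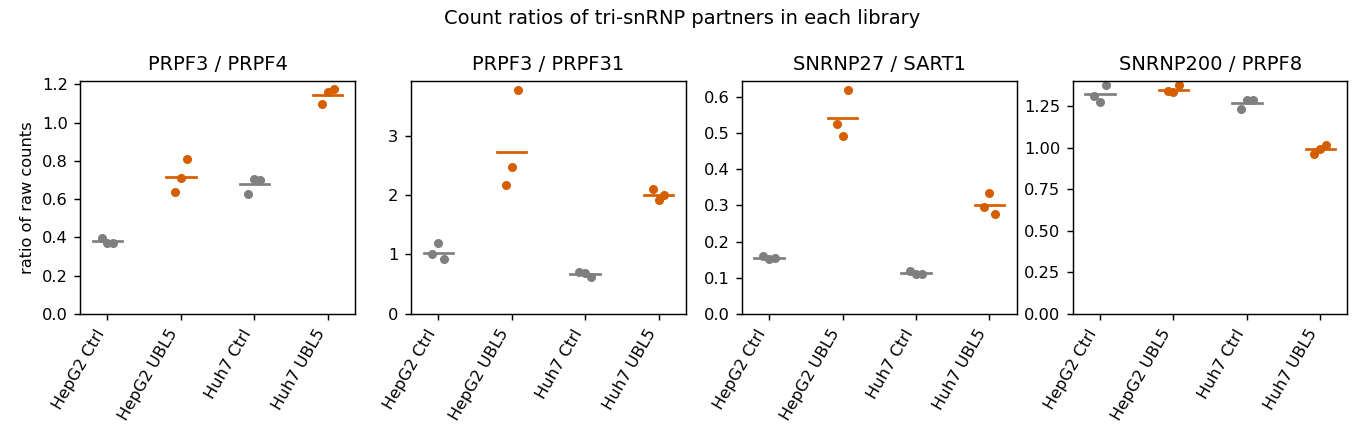
Ratio of raw counts of 4 pairs of tri-snRNP genes in each library of HepG2 and Huh7, grey for Ctrl-siRNA and orange for UBL5 siRNA, with bars for the mean on the log2 scale (n = 3); the vertical axes start at 0 and differ between panels. PRPF3 over PRPF4 is higher with UBL5 siRNA in both lines (0.716 and 1.14), and SNRNP200 over PRPF8 is lower with UBL5 siRNA in Huh7 (0.992).

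The promoters of the 10 genes were searched for a short sequence, and its part in the results was not tested. The RefSeq windows (GRCh38.p14, 250 bases before to 50 after a start) held entries for 9 of the 10, all but PRPF3. The sequence CCGGAA, the core of the sites that ETS factors bind, searched on both strands (CCGGAA or TTCCGG), was in a window of 6 of these 9 genes and in 17.2% of all 35116 windows (20.1% of 27305 genes). It was in those of SNRNP200, PRPF6, PRPF4, SNRNP27, SART1 and USP39 and not in those of PRPF8, EFTUD2 and PRPF31. The first match of SNRNP27, which rose the most, and those of SART1 and SNRNP200, which rose in Huh7 and in neither line, are shown with 9 bases on each side, the match in capitals and on the gene's own strand:
SNRNP27, chr2:69893868-69893891, plus strand: caaagaagaCCGGAAccctcgcaa
SART1, chr11:65961673-65961696, plus strand: gctcttagtTTCCGGcaacacgac
SNRNP200, chr2:96305569-96305592, minus strand: gggcgcgacCCGGAAgcggaaggg
SNRNP27 had 3 matches and SART1 and SNRNP200 had 2 each. In HepG2, the 3 genes that rose and have a window all held a match, as did 3 of the 6 that were not called. In Huh7, genes that rose had a match (PRPF6, PRPF4, SNRNP27, SART1 and USP39) or none (PRPF8, EFTUD2 and PRPF31). SNRNP200, which did not rise, held matches too. USP39 also has windows without a match, and the match of PRPF4 lay at the edge of its window. The shares over all windows and genes include genes not listed in these lines.

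The other genes of the pathway were taken from 5 lists of proteins around the tri-snRNP, 38 genes that were all tested. In HepG2, 10 rose and 6 fell (median log2 fold change 0.21), where 16.5% of all genes tested were called higher and 20.1% lower, with a median of 0.01. In Huh7, 28 rose and 3 fell (median 0.33), where 34.9% of all genes tested were higher and 36.4% lower, with a median of -0.01. The counts of the single lists are to be read against these same shares, such as 1 of 7 Sm genes higher in HepG2 beside 16.5%.

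Of 7 other U5 and U4/U6 proteins, 2 rose and 1 fell in HepG2 and 5 rose in Huh7. DDX23, the helicase that hands the 5′ splice site from U1 to U6, rose from 134 ± 12.02 to 225 ± 10.7 CPM in HepG2 and from 198 ± 11.5 to 372 ± 17.2 in Huh7 (SD, n = 3; log2 fold changes 0.74 and 0.91). SNU13, which opens the assembly of proteins on U4, rose by a log2 of 0.50 and 0.75. SNRNP40, a WD-repeat protein of U5, rose in Huh7 (0.52) and had 0.21 in HepG2 (edgeR adjusted p = 0.121). CD2BP2, a U5 protein that leaves before the tri-snRNP forms, fell in HepG2 (-0.45) and had 0.13 in Huh7 (adjusted p = 0.0860).

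The Sm ring surrounds the U4 and U5 RNAs and the LSm ring binds the end of U6 RNA. Of the 7 Sm genes, 1 rose in HepG2, SNRPE (0.53), and 5 rose and 1 fell in Huh7, with SNRPE at 0.61, SNRPD3 at 0.36, SNRPD1 at 0.33 and SNRPD2 lower at -0.29. In HepG2, the replicate block gave 3 Sm calls, and RLE factors, no filter and DESeq2 gave 2 each. The call of SNRPE in HepG2 was lost without replicate 2 of Ctrl-siRNA or any 1 of the UBL5 siRNA libraries. Of the 7 LSm genes, LSM7 rose (log2 fold change 1.26) and LSM5 fell (-0.49) in HepG2, where 1 of these 2 calls was lost without replicate 1 of Ctrl-siRNA or replicate 2 or 3 of UBL5 siRNA. In Huh7, 5 rose and 1 fell, with LSM7 at 1.202 and LSM5 at -0.31. LSM7 had the largest rise of both rings, from 31.4 ± 9.82 to 75.3 ± 8.38 CPM in HepG2 and from 24.7 ± 2.26 to 56.7 ± 2.60 in Huh7 (SD, n = 3).

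Of 7 proteins that join or act on the particle in the B complex, the stage in which the tri-snRNP is bound to the pre-mRNA, 3 rose and 3 fell in HepG2 and 4 rose and 1 fell in Huh7. PRPF4B, the kinase that phosphorylates PRPF6 and PRPF31, rose by a log2 of 0.50 and 0.80, and SMU1 rose by 0.44 and 0.49. WBP4 (-0.66), ZMAT2 (-0.41) and PRPF38A (-0.40) fell in HepG2, and WBP4 alone fell in Huh7 (-0.27). These 3 were named after their values were seen. The 6 calls in HepG2 were 3 without replicate 1 of Ctrl-siRNA or replicate 2 of UBL5 siRNA.

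Of 10 proteins of tri-snRNP assembly and recycling, 3 rose and 1 fell in HepG2 and 9 rose in Huh7. USP15, a deubiquitinase that works on PRPF31 together with SART3, rose from 29.6 ± 1.17 to 94.5 ± 9.18 CPM in HepG2 and from 39.3 ± 0.827 to 132 ± 2.99 in Huh7 (SD, n = 3; log2 fold changes 1.67 and 1.75). USP4, the deubiquitinase of PRPF3, rose in Huh7 (0.80) and had 0.18 in HepG2 (edgeR adjusted p = 0.350). SART3, which brings U4 and U6 together and was named after its values were seen, fell in HepG2 (-0.26, adjusted p = 0.0473) and rose in Huh7 (0.28, adjusted p = 0.000114). COIL, the scaffold of the Cajal body, where the particle is assembled, rose in both (0.44 and 0.48).

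**Figure D4:**
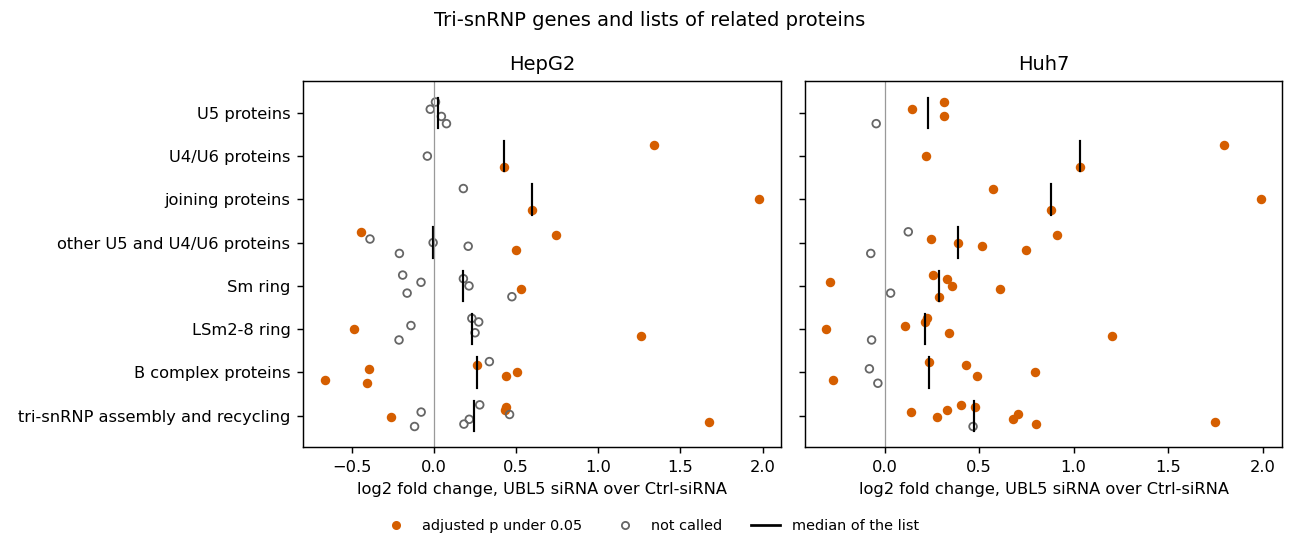
Log2 fold change, UBL5 siRNA over Ctrl-siRNA, of the 10 tri-snRNP genes (upper 3 rows) and of the 38 genes of 5 related lists in HepG2 and Huh7 (n = 3 libraries per siRNA); filled orange points have an adjusted p under 0.05, open points do not, and black lines are the medians. PRPF3, SNRNP27, LSM7 and USP15 are past 1 in both lines, while most points of the U5, Sm and LSm rows lie within 0.6 of 0.

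The genes whose pattern was most like those of PRPF3 and SNRNP27 were sought among 8116 genes with a mean of at least 10 CPM in every group, by Pearson's r of log2 CPM over the 12 libraries after centring on each line. For PRPF3 they included HARS2 (r = 0.997) and ZSCAN25 (0.996), which rose by a log2 of 0.94 and 0.64 in HepG2 and 1.43 and 0.85 in Huh7. For SNRNP27 they were SRRM1 (r = 0.998), SPOPL (0.997) and GLO1 (0.996), with rises of 1.13, 2.10 and 1.14 in HepG2 and 1.21, 2.21 and 1.03 in Huh7. HARS2 encodes the histidyl-tRNA synthetase of mitochondria and SRRM1 a co-activator of splicing. These values of r describe libraries that fall into an siRNA group each, so any gene with a steady change in both lines scores high.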

How the data were processed

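RNA-seq counts per gene were read for all 12 libraries. Per the submitters' processing notes and the paper's methods, the authors made stranded poly(A) libraries, demultiplexed with bcl2fastq, used FastQC 0.11.9 for read quality and STAR 2.7.6a for alignment to GRCh38, and obtained the deposited raw counts with featureCounts. The version, annotation and strand setting of the counting are not given in the sources used here. The tables of each line, one for each sign of the authors' fold change, were joined. The tables also hold the authors' DESeq2 1.30.0 comparison, which was not used: deposited score columns (mean normalized count, test statistic), deposited log2 fold changes with their errors, and deposited p-values. Columns not matched to a sample numbered 0.

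Tests were run in R 4.3.3 (DESeq2 1.42.0, edgeR 4.0.16, limma 3.58.1), and tables and plots were made in Python 3.11.15 (matplotlib 3.10.9, scipy 1.17.1, numpy 2.4.6, pandas 2.3.3). The filterByExpr filter used a min.total.count of 15 and a min.count of 10. After TMM scaling, each line was fitted with glmQLFit and glmQLFTest of edgeR, 3 libraries against 3. The interaction and the Ctrl-siRNA comparison came from a fit of the 4 groups. All p-values were adjusted over all genes tested, with calls at an adjusted p under 0.05 and no minimum fold change. The steps were tested on simulated counts. Alternatives were RLE factors, library totals alone, no filter, a replicate block, DESeq2, each library left out, the spread of the 12 libraries and a pseudocount for the ratios. GENCODE 44 held 99.8% of the identifiers in each line and gave exons, introns and coordinates, which count from 1. The members and lists were chosen with earlier results of these data known. Named genes were the 10 members, UBL5, up to 4 genes per list with the smallest adjusted p, the 3 genes most like PRPF3 and SNRNP27, and genes sharing exon bases with a member. A gene that this rule names is not reported here. The lowest count of a member in a library was 173. How far depth and the spread between libraries each set the precision was not tested.

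Replicate numbers were checked for pairing. Over genes with a mean of at least 1 CPM, deviations of same-numbered HepG2 libraries correlated at 0.201, 0.147 and 0.109. These passed the set minimum of 0.1, so the numbers were taken to pair there, from the data and not from the labels. Over all genes tested, the HepG2 values were 0.124, 0.110 and 0.0729, the last under that minimum. In Huh7, the values at 1 CPM or more were 0.234, -0.00645 and 0.327. Over genes with a mean of at least 10 CPM, same-numbered libraries correlated at 0.408, 0.319 and 0.336 in HepG2. At that level, the Huh7 values were 0.437, 0.0625 and 0.567. The main fits used no pairing, and the replicate block, in both lines, was an alternative only.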

Additional observations from a re-analysis of the deposited data

Results flagged for a closer look

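Of the 10 tri-snRNP genes, 3 had an effect of UBL5 siRNA that differed between the lines by the test of the difference itself, an interaction term over the 12 libraries in edgeR. Of all 15668 genes tested, 21.5% differed, 11.7% of them all in this direction and 9.88% in the other. The log2 fold change was larger in Huh7 than in HepG2 by 0.58 for PRPF4 (adjusted p = 0.00223), by 0.43 for PRPF3 (adjusted p = 0.0214) and by 0.37 for SART1 (adjusted p = 0.0185). In each line, PRPF4 and PRPF3 rose, while SART1 was called in Huh7 and not in HepG2. The call of PRPF3 depends on single libraries, with an adjusted p between 0.0503 and 0.0552 without any of 4 of them.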

How the results depend on the processing

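The 4 members called in HepG2 and the 9 in Huh7 were as many in every fit that left out 1 library, under RLE factors, library totals alone, no filter, DESeq2 and the replicate block; the spread of the 12 libraries gave 5 and 7. With the replicate block, 5 members in place of 3 differed between the lines, and 3 genes of the Sm ring in place of 1 were called in HepG2. The block could not be applied to the Ctrl-siRNA comparison, and it changed no other call of a member. Leaving out 1 library gave 2 to 5 members that differ between the lines, 0 to 2 Sm, 1 to 2 LSm and 3 to 6 B complex genes called in HepG2. RLE factors, no filter and DESeq2 each gave 2 Sm genes there. Without replicate 2 of UBL5 siRNA, 1834 genes were higher and 1985 lower in HepG2, in place of 2607 and 3173. Without replicate 3 of Ctrl-siRNA, 3378 were higher and 3892 lower there, of 16157 tested. These were the fewest and the most when 1 HepG2 library was left out of the HepG2 fit. Leaving out both HepG2 libraries numbered 3, chosen after seeing the data, gave 5 members that differ between the lines. Signs turned only for values near 0 that were not called, and the cause was not tested. In HepG2, PRPF8 (-0.0030) and EFTUD2 (-0.040) turned with library totals alone, PRPF6 with RLE factors (0.0055), no filter (0.00081) and DESeq2 (0.013), and EFTUD2 (-0.033), PRPF6 (0.013) and PRPF31 (0.12) without both libraries numbered 3. With Ctrl-siRNA, the difference of PRPF8 turned with RLE factors (0.0021), library totals (0.089) and DESeq2 (0.0024), that of SNRNP200 with library totals (0.030), and that of SART1 with these 3 (0.011, 0.099 and 0.011) and without both libraries numbered 3 (0.011). The difference of UBL5 between the lines was -0.095 without these. Leaving out 1 library gave -0.022 to 0.056 for EFTUD2, -0.066 to 0.066 for PRPF6 and -0.12 to 0.14 for PRPF31 in HepG2, -0.089 to 0.0052 for PRPF8 and -0.066 to 0.011 for SART1 with Ctrl-siRNA, and -0.086 to 0.035 for SNRNP27 and -0.083 to 0.54 for UBL5 between the lines.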

Other observations

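UBL5 itself has 4 introns in its canonical transcript, and the fourth starts with the minor spliceosome sequence GTATCCTT that was at none of the 210 introns of the tri-snRNP genes. Its RefSeq promoter window held 3 matches to CCGGAA or TTCCGG, as many as that of SNRNP27.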
